A study of Mus musculus with 12 samples.

Results

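The genes of oxidative phosphorylation were followed here in the brains of 12 mice. Members were the rows of the count table whose names are those of subunits of the respiratory chain complexes I to IV or of ATP synthase (complex V), nuclear or mitochondrial, with at least 100 counts over all libraries. That gave 97 members of 21643 rows, of which 84 are nuclear and 13 are encoded in mitochondrial DNA. Of 102 rows with such names, 5 fell short. The nearest below the minimum was Cox8b with 72 counts, and the lowest member was Cox4i2 with 281. All 97 members passed the filter on low counts that was applied to the whole table.

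The libraries came from mice that all carry 5xFAD, a set of human amyloid transgenes expressed in neurons, so no library stands for a brain without amyloid pathology. The groups of 3 mice were labelled Control, PBS (the buffer), ShK-223 (a peptide modelled on a toxin of sea anemones) and PAP-1 (a small-molecule compound). ShK-223 and PAP-1 both block Kv1.3, a potassium channel of microglia and T cells. Each library came from its own mouse. The sources used here do not give strain, age, sex, dose, route or duration, nor how Control mice differed from PBS mice.

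In oxidative phosphorylation, complexes I and II pass electrons from nutrients to ubiquinone, complex III passes them on to cytochrome c and complex IV to oxygen. Complexes I, III and IV pump protons across the inner mitochondrial membrane, and complex V uses the gradient to make ATP, on which neurons depend heavily. Complex II is built from nuclear genes alone, whereas the others combine nuclear subunits with subunits made inside the mitochondrion. Nuclear respiratory genes are known targets of the factors NRF1, GABP (an ETS factor) and YY1, and the mitochondrial genes are transcribed together as long precursors.

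Promoter sequence was looked up in RefSeq on GRCm38.p6 for the nuclear members, and 66 genes had an entry. Motifs were searched on both strands in windows from 250 bases before to 50 bases after each start. The NRF1 motif, a GC-rich near-palindrome spelled out by the longer capitals in Sdhd (forward) and Ndufa8 (reverse), was found for 17 of these 66 genes (25.8%), against 5.19% of all 27025 genes with an entry. The ETS motif CCGGAAG was found for 16 (24.2%, against 9.93%) and the YY1 motif for 4 (6.06%, against 0.755%). At least 1 of the 3 motifs was found for 32 genes (48.5%, against 14.5%). A match describes letters only and shows no binding. The stretches printed here are the 250 bases before the start, 5′ to 3′ on the strand of the gene, for 6 members named below. Capitals mark a match to the NRF1 or the ETS motif on either strand. Sdhd and Atp5pd hold 1 of each, without overlap, Uqcr11 holds an ETS match and Ndufa8 an NRF1 match. Ndufb2 and Cox7a1 hold none of the 3 in this window and are shown as the contrast. In order, the stretches lie at chr9:50603850-50604099 (minus strand), chr11:115419920-115420169 (minus), chr10:80406822-80407071 (minus), chr2:36049339-36049588 (minus), chr6:39592315-39592564 (plus) and chr7:30183921-30184170 (plus).
Sdhd: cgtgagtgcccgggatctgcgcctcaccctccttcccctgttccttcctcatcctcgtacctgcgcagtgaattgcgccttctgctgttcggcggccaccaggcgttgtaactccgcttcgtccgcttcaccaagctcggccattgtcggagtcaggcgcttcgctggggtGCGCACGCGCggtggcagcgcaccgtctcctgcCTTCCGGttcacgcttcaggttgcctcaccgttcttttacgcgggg
Atp5pd: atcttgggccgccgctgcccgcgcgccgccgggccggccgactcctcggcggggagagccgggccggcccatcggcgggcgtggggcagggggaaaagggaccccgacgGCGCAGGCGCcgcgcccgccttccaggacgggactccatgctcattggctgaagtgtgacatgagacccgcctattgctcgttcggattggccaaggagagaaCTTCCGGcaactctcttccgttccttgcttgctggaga
Uqcr11: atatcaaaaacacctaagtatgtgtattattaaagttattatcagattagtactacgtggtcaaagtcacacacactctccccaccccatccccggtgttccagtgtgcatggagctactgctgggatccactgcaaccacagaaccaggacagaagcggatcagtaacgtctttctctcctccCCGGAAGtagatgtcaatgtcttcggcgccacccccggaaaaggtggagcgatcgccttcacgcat
Ndufa8: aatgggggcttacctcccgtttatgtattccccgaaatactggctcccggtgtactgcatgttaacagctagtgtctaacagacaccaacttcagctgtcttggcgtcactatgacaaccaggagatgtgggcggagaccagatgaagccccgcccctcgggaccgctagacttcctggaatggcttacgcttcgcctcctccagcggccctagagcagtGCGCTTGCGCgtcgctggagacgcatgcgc
Ndufb2: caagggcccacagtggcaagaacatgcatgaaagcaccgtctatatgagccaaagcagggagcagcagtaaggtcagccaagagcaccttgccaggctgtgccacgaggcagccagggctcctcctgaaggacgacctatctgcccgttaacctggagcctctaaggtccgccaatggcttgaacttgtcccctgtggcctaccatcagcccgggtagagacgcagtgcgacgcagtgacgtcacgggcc
Cox7a1: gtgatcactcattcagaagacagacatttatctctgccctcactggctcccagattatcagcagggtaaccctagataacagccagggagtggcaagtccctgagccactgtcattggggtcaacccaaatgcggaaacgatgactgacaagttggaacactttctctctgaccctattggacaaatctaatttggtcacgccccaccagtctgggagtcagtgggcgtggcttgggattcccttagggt

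Libraries held 14364013 to 19048551 counts. The label of whole brain did not hold alike for all of them. All 16 of 16 cerebellar marker genes were detected, and their summed level was 10097 to 11012 CPM (counts scaled to library size) in PBS, 684 to 1231 in ShK-223, 775 to 2278 in PAP-1 and 1070 to 9693 CPM in Control. A cerebellar index, the mean over these genes of the CPM relative to the highest library, was 0.840 to 0.991 in PBS, 0.801 in Control 2 and 0.185 in PAP-1 1. It was 0.0322 to 0.0413 in the other 7 libraries, where Gabra6, which defines cerebellar granule cells, was at or under 1.23 CPM. Markers of forebrain excitatory neurons summed to 880 to 2777 CPM in PBS, 5163 to 6924 in ShK-223 and 5080 to 6751 in PAP-1. Microglial markers (9 of 10 detected) summed to 170 to 357 CPM in PBS, 557 to 679 in ShK-223 and 486 to 644 in PAP-1. Oligodendrocyte markers summed to 1885 to 3739 CPM in PAP-1, below PBS (3943 to 7407) and Control (4383 to 6139). Astrocyte markers summed to 3992 to 4782 CPM in PBS, below ShK-223 (5181 to 5861). As the mean CPM relative to the highest library, the astrocyte list was higher in PBS (0.683 to 0.751) than in ShK-223 (0.522 to 0.605). The direction for astrocytes thus depends on the measure. The part of these cell types in the results was not tested. In the comparisons of ShK-223 and PAP-1 with PBS, treatment and tissue content cannot be told apart. Striatal markers summed to 367 to 2336 CPM in Control, 320 to 532 in PBS, 359 to 1682 in ShK-223 and 316 to 453 in PAP-1. Tissue content thus also differed between libraries in the comparisons without PBS, and its part there was not tested. In PBS against Control, 1 of the 3 Control libraries had a cerebellar index near that of PBS. Where this library is left out, group and tissue content cannot be told apart in that comparison either. In bulk tissue, fewer cells of a type cannot be told apart from less RNA per cell.

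The mitochondrial genes supplied most of the RNA of the pathway. In Control they held 3.50%, 2.65% and 2.90% of all counts, and in PBS 2.91%, 2.48% and 2.70%. In ShK-223 they held 2.70%, 3.31% and 3.29%, and in PAP-1 2.98%, 2.98% and 3.26%. PBS was lowest on average, at 2.70% ± 0.214 (SD, n = 3), and PAP-1 stood at 3.07% ± 0.163, with no overlap between these groups. ShK-223 (3.10% ± 0.343) and Control (3.02% ± 0.435) overlapped with PBS.

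The 84 nuclear members together held less than 1% of counts and varied less. Their share was 0.775% ± 0.0117 (SD, n = 3) in Control, 0.812% ± 0.0443 in PBS, 0.746% ± 0.0142 in ShK-223 and 0.796% ± 0.0498 in PAP-1. All 3 ShK-223 libraries (0.731 to 0.759%) lay below all 3 PBS libraries (0.775 to 0.861%). The ratio of mitochondrial to nuclear counts ran from 3.10 in PBS 2 to 4.53 in ShK-223 2. Within groups it spanned 3.10 to 3.75 in PBS, 3.40 to 4.47 in Control, 3.56 to 4.53 in ShK-223 and 3.58 to 4.41 in PAP-1, so every pair of groups overlapped.

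**Figure D1:**
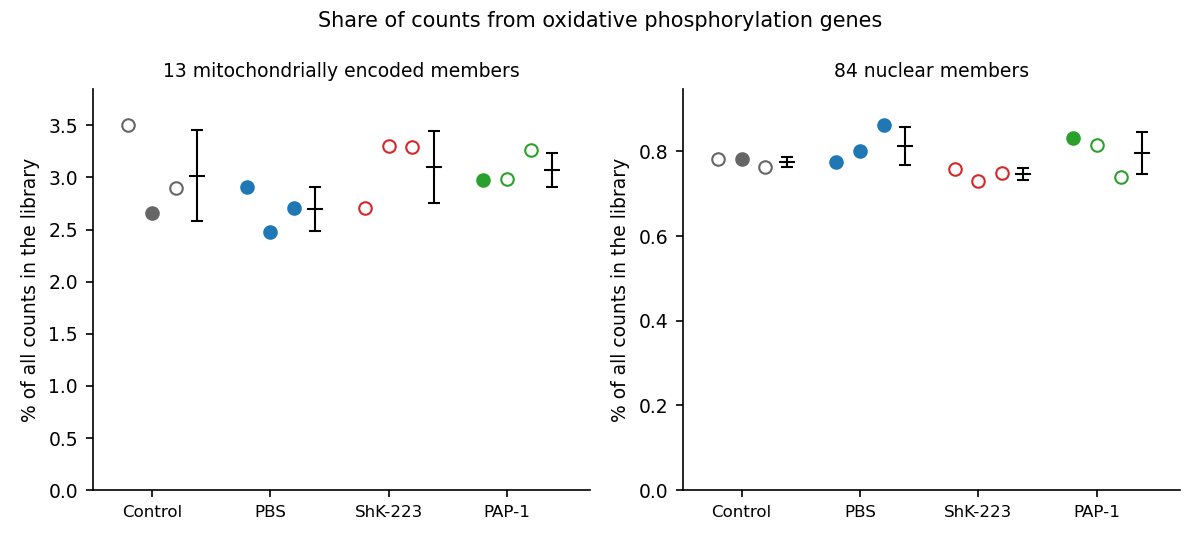
Share of all counts (%) from the 13 mitochondrially encoded members (left) and the 84 nuclear members (right), 1 point per library, with the group mean ± SD (n = 3) beside the points. Filled points are the 5 libraries with a cerebellar index of at least 0.185. Mitochondrial shares lie between 2.48% and 3.50%, and nuclear shares between 0.731% and 0.861%.

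Levels per kb of transcript split the mitochondrial genes into a high and a low set. The highest was mt-Co1, the catalytic subunit of complex IV, at 6592 ± 799 CPM per kb (SD over 12 libraries). Next came mt-Cytb, the core of complex III, at 4946 ± 651 CPM per kb. The complex I subunits mt-Nd1 (3430 ± 432 CPM per kb), mt-Nd2 (2851 ± 264), mt-Nd6 (2514 ± 401), mt-Nd5 (2156 ± 248) and mt-Nd4 (1632 ± 217) followed. From mt-Nd1 to mt-Nd5, neighbours in this order differed by less than the sum of their SDs.

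The other 6 mitochondrial genes were listed far lower, at 112 ± 22.5 CPM per kb for mt-Co2, 86.0 ± 22.3 for mt-Atp8, 60.0 ± 11.1 for mt-Atp6, 52.0 ± 9.96 for mt-Co3, 19.4 ± 3.93 for mt-Nd3 and 18.5 ± 3.90 for mt-Nd4l. These genes are neighbours, between positions 7013 and 10173 of the mitochondrial genome (GRCm38), and together held 0.630% of the mitochondrial counts. On GRCm38 chromosome 1, between 24612407 and 24615565, lie annotated pseudogenes that match 5 of the 6 at 99.7 to 100% identity over nearly their whole length, all except mt-Atp8. Beside them lies a copy of part of mt-Nd4, identical over 63.6% of that gene, which is in the high set. Only annotated transcripts were searched, so a copy of mt-Atp8 outside them would have been missed. In the mitochondrial genome mt-Atp8 lies between mt-Co2 and mt-Atp6. The copies of these 2 lie at 24614885 to 24615565 and at 24613974 to 24614651, and the sequence between them was not searched. Reads of near-identical copies may have been dropped or split in counting. The levels of the 6 low genes and of mt-Nd4 are therefore uncertain, as are the mitochondrial shares and ratios given above. The part of the copies was not tested.

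**Figure D2:**
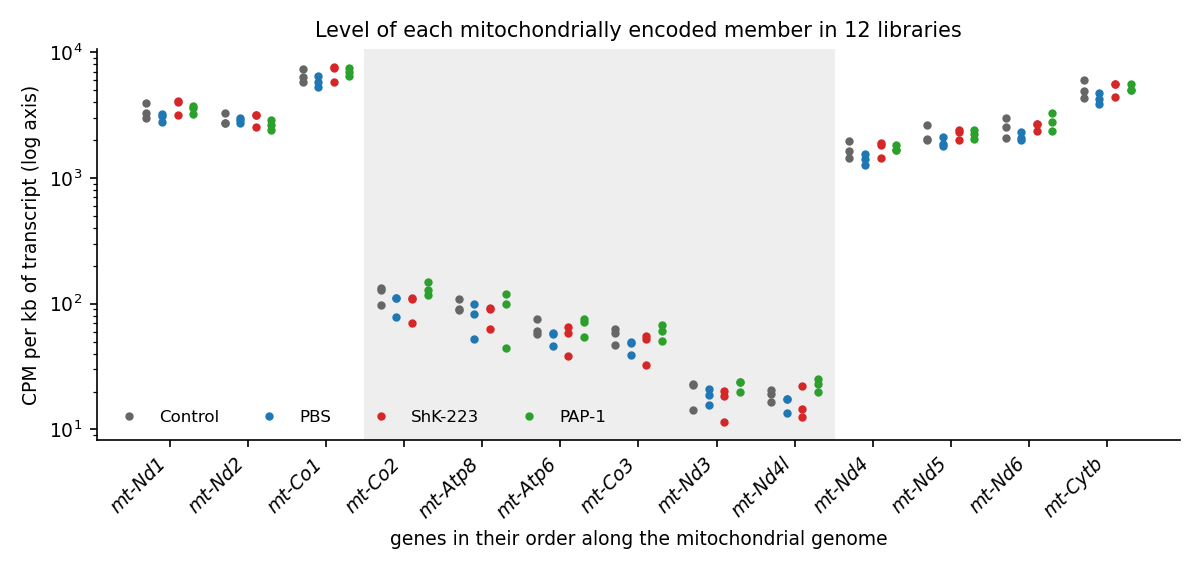
Level of each mitochondrially encoded member in each of the 12 libraries, in CPM per kb of transcript on a log axis, in the order of the genes along the mitochondrial genome. The 6 genes on grey have means of 18.5 to 112 CPM per kb, and the other 7 have means of 1632 to 6592 CPM per kb.

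Nuclear members, by the same measure over the longest annotated transcript, had a median of 66.6 CPM per kb among the 81 with a length. Atp5f1b, the catalytic beta subunit of ATP synthase, was highest at 500 ± 41.7 CPM per kb (SD over 12 libraries). Cox8a (316 ± 40.2) and Cox4i1 (313 ± 24.1), 2 structural subunits of complex IV, came next and did not differ beyond their spread. The median was 56.6 CPM per kb over the complex I members, 60.5 over complex II, 79.3 over complex III, 91.5 over complex IV and 95.7 over complex V. The lowest listed was Ndufb8, an accessory subunit of complex I, at 0.935 ± 0.211 CPM per kb. The counter and the annotation are not known, so this low level is uncertain.

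Levels of most nuclear members hardly moved over the 12 libraries. The SD of log2(CPM + 0.5) over the libraries had a median of 0.128 for nuclear members and 0.227 for mitochondrial members, beside 0.279 for all 15061 genes tested. It was under 0.25 for 73 of 84 nuclear members (86.9%), 7 of 13 mitochondrial members (53.8%) and 44.2% of all genes. The members were not matched to other genes in level, which affects this spread. The widest were Cox6a2 (1.08), Cox7a1 (0.735), Cox6b2 (0.614), Ndufb2 (0.554) and Cox5a (0.498).

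No mitochondrial gene passed an adjusted p of 0.05 in any of the 6 comparisons between groups (edgeR quasi-likelihood test over all 12 libraries, Benjamini-Hochberg over 15061 genes). Against Control, all 13 had lower values in PBS, with a median log2 fold change of -0.25, beside 0.03 for nuclear members and 0.01 for all genes. Against PBS, 12 of 13 were above 0 in PAP-1 (median 0.29, nuclear 0.03, all genes -0.01) and 11 of 13 in ShK-223 (median 0.08, nuclear -0.07, all genes -0.01). These comparisons share the PBS libraries. The medians give each gene the same weight, and the 6 low genes of uncertain level held 0.630% of the mitochondrial counts. The most abundant, mt-Co1 and mt-Cytb, stood at 0.26 and 0.28 in ShK-223 and at 0.25 and 0.28 in PAP-1.

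The gene nearest to the threshold was mt-Nd6, a complex I subunit encoded on the opposite strand from the others. Its level was 1564, 1069 and 1319 CPM in Control, 1194, 1033 and 1075 in PBS, 1234, 1386 and 1386 in ShK-223, and 1717, 1226 and 1451 in PAP-1. All PAP-1 and all ShK-223 libraries lay above all PBS libraries. The log2 fold change against PBS was 0.41 (SE 0.155, adjusted p = 0.0518) in PAP-1 and 0.28 (SE 0.155, adjusted p = 0.171) in ShK-223. Without Control 2 and PAP-1 1, the call was made in ShK-223 (log2 fold change 0.28, adjusted p = 0.0496) and in PBS against Control (-0.39, adjusted p = 0.0211). In that fit, group and cerebellar index cannot be told apart in either comparison.

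The most abundant gene, mt-Co1, was at 11452, 9036 and 9840 CPM in Control, 10086, 8198 and 8881 in PBS, 9028, 11791 and 11633 in ShK-223, and 10059, 10704 and 11504 in PAP-1. Its groups overlapped in each comparison with PBS, and its log2 fold change was 0.26 (95% interval -0.06 to 0.57) in ShK-223 and 0.25 (-0.06 to 0.56) in PAP-1. Intervals for mitochondrial genes had a median width of 0.68 log2 units in ShK-223 against PBS, so for most of these genes a shift of the size seen here was not detectable with 3 mice a group.

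Nuclear members were called in both treatments against PBS. In ShK-223 against PBS, 13 of 97 members passed (13.4%, beside 39.1% of all genes tested), 2 higher and 11 lower. With RLE scaling the split was 3 higher and 7 lower, and with DESeq2 it was 5 and 13. In PAP-1 against PBS, 20 members passed (20.6%, beside 43.7% of all genes), 11 higher and 9 lower, or 19 and 9 with DESeq2. The difference between these shares and those of all genes was not tested.

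These counts depend on single libraries. In ShK-223 against PBS the count was 24 without Control 2, 5 without PBS 2, 4 without PBS 3, and 8, 7 and 4 without ShK-223 1, 2 and 3. In PAP-1 against PBS it was 10 without PBS 2, 11 without PBS 3 and 13 without PAP-1 1. Without both Control 2 and PAP-1 1 it was 28 in ShK-223 (beside 51.0% of all genes), all 13 included, and 22 in PAP-1 (beside 49.9%), with 18 of the 20. The cerebellar index was 0.840 to 0.991 in PBS, 0.0322 to 0.0381 in ShK-223 and 0.0378 to 0.185 in PAP-1. A fit that includes it can therefore hardly separate group from index. Lost calls and changed signs in such a fit, here and below, show no cause. With the cerebellar index as a term neither comparison had a called member. With batch name as a term, ShK-223 had none (beside 0.0266% of all genes) and PAP-1 kept 5 (beside 18.3%). These are Ndufb2, Uqcr11, Ndufa8, Atp5if1 and Atp5mk. Batch names were C, CH and C in PBS, CH, B and CH in ShK-223, and B, C and B in PAP-1. Group and batch name thus partly coincide, and calls lost in that fit show no cause either. Within 1 batch name, the nuclear and mitochondrial medians were -0.03 and 0.06 in ShK-223 (batch CH, 2 libraries against 1) and 0.06 and 0.17 in PAP-1 (batch C, 1 against 2), values with no test. All 13 members called in ShK-223 and all 20 called in PAP-1 kept their direction there. Those libraries also gave the calls, so this is no separate test.

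**Figure D3:**
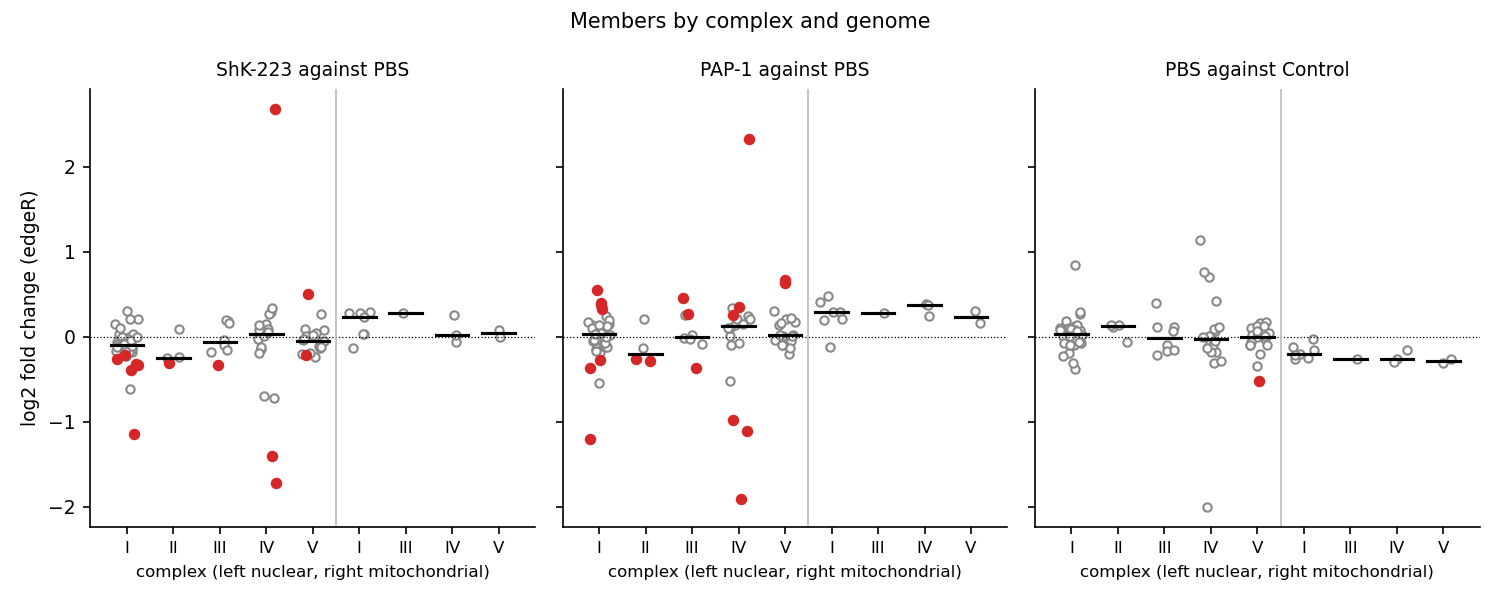
Fitted log2 fold change of each member by complex, nuclear members to the left of the grey line and mitochondrially encoded members to the right, in 3 comparisons. Red points passed an adjusted p of 0.05 and black bars are medians. All 13 mitochondrial genes lie below 0 in PBS against Control and none is red in any panel.

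Complex I, the entry point for electrons from NADH, had 36 nuclear members. In ShK-223 against PBS, 6 fell (16.7%, beside 20.3% of all genes) and none rose, with a median of -0.10 over the complex. In PAP-1 against PBS, 3 fell and 4 rose (19.4% called, beside 43.7% of all genes, 22.6% lower and 21.1% higher), with a median of 0.03. Its 7 mitochondrial subunits had medians of 0.23 and 0.29.

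The largest change in complex I was that of Ndufb2, an accessory subunit of the membrane arm (GRCm38 chromosome 6, 39592565 to 39599843). It was at 10.8, 21.3 and 11.7 CPM in Control, 24.3, 27.8 and 27.1 in PBS, 13.9, 12.4 and 9.64 in ShK-223, and 12.7, 11.3 and 10.6 in PAP-1. PBS lay above all other libraries, with Control 2 next. It fell by 1.14 on the log2 scale in ShK-223 (SE 0.240, adjusted p = 0.00824) and by 1.20 in PAP-1 (SE 0.241, adjusted p = 0.00527), and leaving out any single library kept both calls. The cerebellar index was also high in PBS and Control 2. In a fit that included it, which can hardly separate it from group, the values were -0.06 (adjusted p = 0.998) in ShK-223 and -0.19 (adjusted p = 0.855) in PAP-1.

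Ndufs1, the largest core subunit, which carries iron-sulfur clusters, was at 99.8, 124 and 92.8 CPM in Control, 131, 132 and 126 in PBS, 95.2, 99.9 and 102 in ShK-223, and 102, 108 and 91.2 in PAP-1. No ShK-223 or PAP-1 library reached PBS, and Control 2 stood near it. It fell by 0.39 in ShK-223 (SE 0.108, adjusted p = 0.0186, lost without PBS 2 or ShK-223 1) and by 0.37 in PAP-1 (SE 0.108, adjusted p = 0.0198, lost without PBS 2 or PAP-1 3). With the cerebellar index as a term both values turned to 0.02.

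In ShK-223 the accessory subunits Ndufv3 (-0.33, adjusted p = 0.0191), Ndufc2 (-0.31, adjusted p = 0.0457) and Ndufa6 (-0.21, adjusted p = 0.0368) also fell. The call of Ndufv3 was lost without PBS 2, PBS 3, ShK-223 2 or ShK-223 3.

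The members of complex I that rose in PAP-1 are all small accessory subunits. Levels of Ndufa8 were 84.5, 77.8 and 73.1 CPM in PAP-1 against 58.9, 58.1 and 62.2 in PBS, beside 74.8, 66.6 and 66.6 in ShK-223 and 70.5, 62.7 and 75.9 in Control. The PAP-1 values were all above those of PBS, and it rose by 0.39 (SE 0.0908, adjusted p = 0.00849) in every fit that left out 1 library. Ndufb9 rose by 0.55 (SE 0.140, adjusted p = 0.0120, lost without PBS 2), Ndufb1 by 0.37 (adjusted p = 0.0268) and Ndufb6 by 0.33 (adjusted p = 0.0251). Of the fixed core subunits, Ndufv1, which binds NADH, had log2 fold changes of -0.09 and -0.04 in ShK-223 and PAP-1, with intervals of -0.23 to 0.06 and -0.19 to 0.11.

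Complex II, succinate dehydrogenase, has 4 subunits. Its 2 membrane anchors, Sdhc and Sdhd, and its flavoprotein Sdha had lower values in both treatments than in PBS, and its iron-sulfur subunit Sdhb higher values. Sdhd (GRCm38 chromosome 9, 50596340 to 50603849) was at 51.2, 54.3 and 49.6 CPM in Control, 55.7, 55.3 and 57.7 in PBS, 44.3, 43.2 and 48.8 in ShK-223, and 44.2, 49.2 and 47.0 in PAP-1. Every treated library lay below every PBS and every Control library. It fell by 0.31 in ShK-223 (SE 0.0753, adjusted p = 0.0119) and by 0.27 in PAP-1 (SE 0.0753, adjusted p = 0.0181, lost without PBS 3 or PAP-1 1).

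Sdhc fell by 0.29 in PAP-1 (SE 0.0931, adjusted p = 0.0304, lost without PBS 1, PBS 3, PAP-1 1 or PAP-1 3) and had -0.24 in ShK-223 (adjusted p = 0.0597). Sdha stood at -0.24 (adjusted p = 0.0549) and -0.13 (adjusted p = 0.243), and Sdhb at 0.09 (adjusted p = 0.470) and 0.22 (adjusted p = 0.0852). Summed over the complex, the level was 645 ± 11.6 CPM (SD, n = 3) in PBS, 563 ± 20.7 in ShK-223, 598 ± 17.1 in PAP-1 and 597 ± 52.9 in Control. No treated library reached a PBS library in this sum, of which Sdha alone was 424 CPM in PBS. Nuclear sums of complexes I and V were also lower in ShK-223 than in PBS without overlap. They were 1972 to 2051 against 2107 to 2271 CPM, and 2816 to 2867 against 3010 to 3238 CPM. That of complex IV was higher in PAP-1 (1495 to 1620 CPM) than in PBS (1365 to 1488 CPM). All other nuclear sums of the treatments overlapped with PBS.

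Complex III had 8 nuclear members. Uqcrfs1, the Rieske iron-sulfur protein, was at 51.3, 58.5 and 49.2 CPM in Control, 58.5, 68.3 and 82.1 in PBS, 52.0, 59.1 and 54.8 in ShK-223, and 52.4, 55.2 and 54.1 in PAP-1. It fell by 0.33 in ShK-223 (SE 0.118, adjusted p = 0.0464), where ShK-223 2 overlapped with PBS 1, and by 0.37 in PAP-1 (SE 0.119, adjusted p = 0.0291). The former call held only without Control 2 or without PBS 1 among the fits that left out 1 library. The latter was lost without PBS 2, PBS 3 or any PAP-1 library.

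Of the small subunits of complex III, Uqcr11 and Uqcrq rose in PAP-1, while Uqcr10 (0.26, adjusted p = 0.0545), Uqcrb (-0.02, adjusted p = 0.900) and Uqcrh (-0.08, adjusted p = 0.440) did not pass. Levels of Uqcr11 were 79.8, 71.3 and 66.2 CPM in PAP-1 against 54.7, 49.0 and 55.0 in PBS, beside 62.5, 59.9 and 58.8 in ShK-223 and 66.0, 55.6 and 62.7 in Control. The PAP-1 libraries were the 3 highest of the 12. It rose by 0.45 in PAP-1 (SE 0.0932, adjusted p = 0.00579) in all fits that left out 1 library, and stood at 0.19 in ShK-223 (adjusted p = 0.125). Uqcrq rose by 0.27 in PAP-1 (SE 0.101, adjusted p = 0.0474), a call that held only without Control 2, PBS 3 or ShK-223 1. The core protein Uqcrc1 stood at -0.09 and 0.02, with intervals of -0.24 to 0.06 and -0.13 to 0.17.

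**Figure D4:**
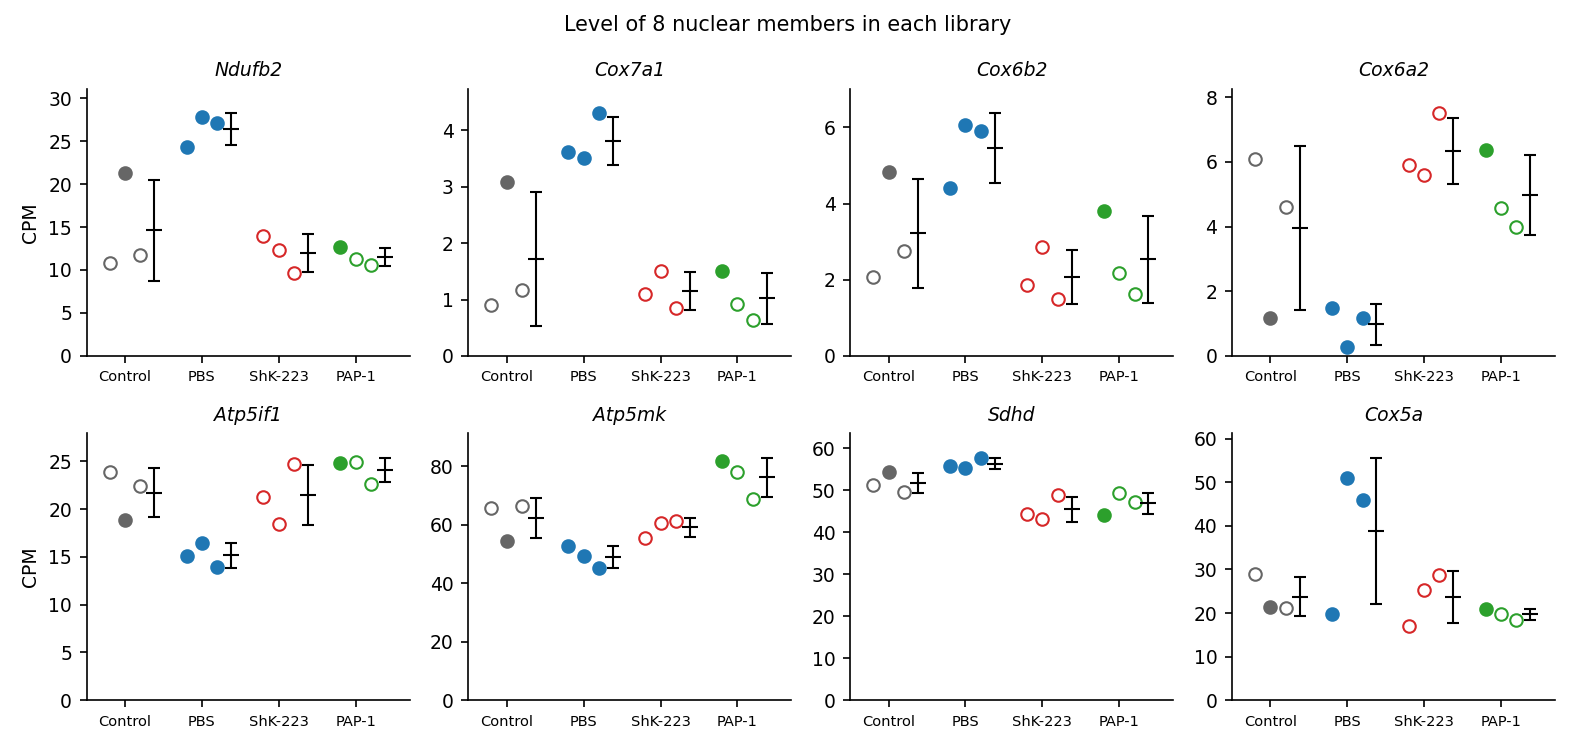
Level (CPM) of 8 nuclear members in each library, with the group mean ± SD (n = 3) beside the points. Filled points are the 5 libraries with a cerebellar index of at least 0.185. Ndufb2, Cox7a1 and Cox6b2 are high, and Cox6a2 is low, in the PBS libraries and in Control 2.

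Complex IV, cytochrome c oxidase, held the widest changes, and these were in subunits that come in tissue-specific versions. Cox6a2, the version of subunit 6A of heart and skeletal muscle, was at 6.10, 1.16 and 4.59 CPM in Control, 1.47, 0.275 and 1.17 in PBS, 5.90, 5.60 and 7.50 in ShK-223, and 6.37, 4.57 and 3.97 in PAP-1. Control 2 stood among the PBS libraries and no treated library did. It rose by 2.68 on the log2 scale in ShK-223 (SE 0.611, adjusted p = 0.00992) and by 2.33 in PAP-1 (SE 0.610, adjusted p = 0.0133), and both calls held without any single library. Cox6a1, the version found in most tissues, rose by 0.36 in PAP-1 (SE 0.125, adjusted p = 0.0408) and had 0.34 in ShK-223 (adjusted p = 0.0502). The call of Cox6a1 held only without a Control library or ShK-223 1, and its value was -0.05 in the fit with the cerebellar index.

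The summed level of 8 muscle marker genes, all detected, was 19.9 to 33.8 CPM in PBS, 54.8 to 80.2 in ShK-223, 56.5 to 68.8 in PAP-1 and 37.8 to 94.7 in Control, and the creatine kinase gene Ckm was at or under 0.230 CPM in all 12 libraries. These genes did not share a direction. Actn2 was at 1.93 to 12.4 CPM in PBS and 12.9 to 22.1 in PAP-1, whereas Myh6 was at 7.84 to 10.1 and 5.06 to 7.20. The part of the 8 genes in the result for Cox6a2 was not tested. Cox7a1, which also is a version of heart and skeletal muscle, moved in the opposite direction.

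Cox7a1 was at 0.908, 3.08 and 1.18 CPM in Control, 3.61, 3.51 and 4.30 in PBS, 1.09, 1.51 and 0.857 in ShK-223, and 1.51, 0.914 and 0.633 in PAP-1. It fell by 1.72 in ShK-223 (SE 0.465, adjusted p = 0.0171, lost without PBS 3, ShK-223 1 or ShK-223 3) and by 1.90 in PAP-1 (SE 0.473, adjusted p = 0.0111). Cox6b2, known as the testis version of subunit 6B, fell by 1.40 in ShK-223 (SE 0.401, adjusted p = 0.0212, lost without PBS 2, PBS 3, ShK-223 1 or ShK-223 3). In PAP-1 it fell by 1.11 (SE 0.398, adjusted p = 0.0436), and the call held without Control 1, Control 2, ShK-223 2, ShK-223 3 or PAP-1 1 and was lost without any other single library. With the cerebellar index as a term, the value of Cox7a1 turned to 0.14 in ShK-223 and that of Cox6b2 to 0.16 in PAP-1.

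Expressed as a share of each pair of versions, per length of transcript, Cox7a1 made up 7.44 to 8.16% of Cox7a1 plus Cox7a2 in PBS and 6.69% in Control 2. In the other libraries it made up 1.37 to 3.23%. Cox6b2 made up 3.77 to 4.69% of its pair with Cox6b1 in PBS and 3.97% in Control 2, against 1.12 to 2.61% in the treated libraries. Cox6a2 made up 0.187 to 0.832% of its pair with Cox6a1 in PBS and 0.687% in Control 2, against 1.96 to 3.33% in the treated libraries. The minor version was below 10% of each pair in all 12 libraries.

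Cox5a, a structural subunit found in all tissues, was at 28.9, 21.3 and 21.2 CPM in Control, 19.7, 51.0 and 46.0 in PBS, 17.0, 25.3 and 28.7 in ShK-223, and 20.9, 19.8 and 18.4 in PAP-1. PBS 2 and PBS 3 stood apart from the other 10 libraries, and PBS 1 did not. It fell by 0.98 in PAP-1 (SE 0.313, adjusted p = 0.0288), with overlap between the groups, and the call was lost without PBS 2, PBS 3 or any PAP-1 library. Cox6c, another small subunit, rose by 0.25 in PAP-1 (adjusted p = 0.0493). Cox4i1, the version of subunit 4 in most tissues, stood at 0.10 in ShK-223 (interval -0.10 to 0.29) and 0.21 in PAP-1 (adjusted p = 0.0758), and its minor version Cox4i2 at -0.70 (adjusted p = 0.173) and -0.52 (adjusted p = 0.292). Ndufa4, which belongs to complex IV despite its name, stood at -0.14 and -0.08, Cox8a at 0.26 and 0.24, and none of them passed.

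Complex V had 18 nuclear members, and the 2 that rose in PAP-1 are not part of its catalytic core. Atp5if1, the inhibitory factor that blocks ATP hydrolysis by the enzyme, was at 23.9, 18.9 and 22.4 CPM in Control, 15.1, 16.5 and 13.9 in PBS, 21.3, 18.5 and 24.8 in ShK-223, and 24.8, 24.9 and 22.7 in PAP-1. The PBS libraries were the 3 lowest of the 12. It rose by 0.50 in ShK-223 (SE 0.131, adjusted p = 0.0149, lost without PBS 3 or ShK-223 3) and by 0.67 in PAP-1 (SE 0.131, adjusted p = 0.00485, held without any single library).

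Atp5mk, a small subunit that helps ATP synthase to form dimers, was at 65.9, 54.6 and 66.4 CPM in Control, 52.6, 49.4 and 45.1 in PBS, 55.4, 60.6 and 61.3 in ShK-223, and 81.9, 78.1 and 68.8 in PAP-1. The PAP-1 libraries were the 3 highest and PBS the 3 lowest. It rose by 0.64 in PAP-1 (SE 0.103, adjusted p = 0.00276, held without any single library) and had 0.27 in ShK-223 (adjusted p = 0.0602). Atp5pd, of the peripheral stalk, fell by 0.21 in ShK-223 (SE 0.0773, adjusted p = 0.0494), a call that held only without Control 2 and that was lost with RLE scaling. Processed pseudogenes match much of Atp5pd nearly letter for letter, so its reads may be shared.

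The catalytic core of complex V did not pass in either treatment. Atp5f1a and Atp5f1b, the alpha and beta subunits, stood at -0.19 (adjusted p = 0.0906) and -0.20 (adjusted p = 0.0991) in ShK-223, and at -0.09 (adjusted p = 0.386) and -0.21 (adjusted p = 0.0919) in PAP-1. The genes Atp5mc1, Atp5mc2 and Atp5mc3 encode the same proton-carrying ring subunit and did not share a direction, at 0.08, 0.02 and -0.24 in ShK-223 and 0.22, 0.01 and -0.04 in PAP-1, with none past the threshold.

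**Figure D5:**
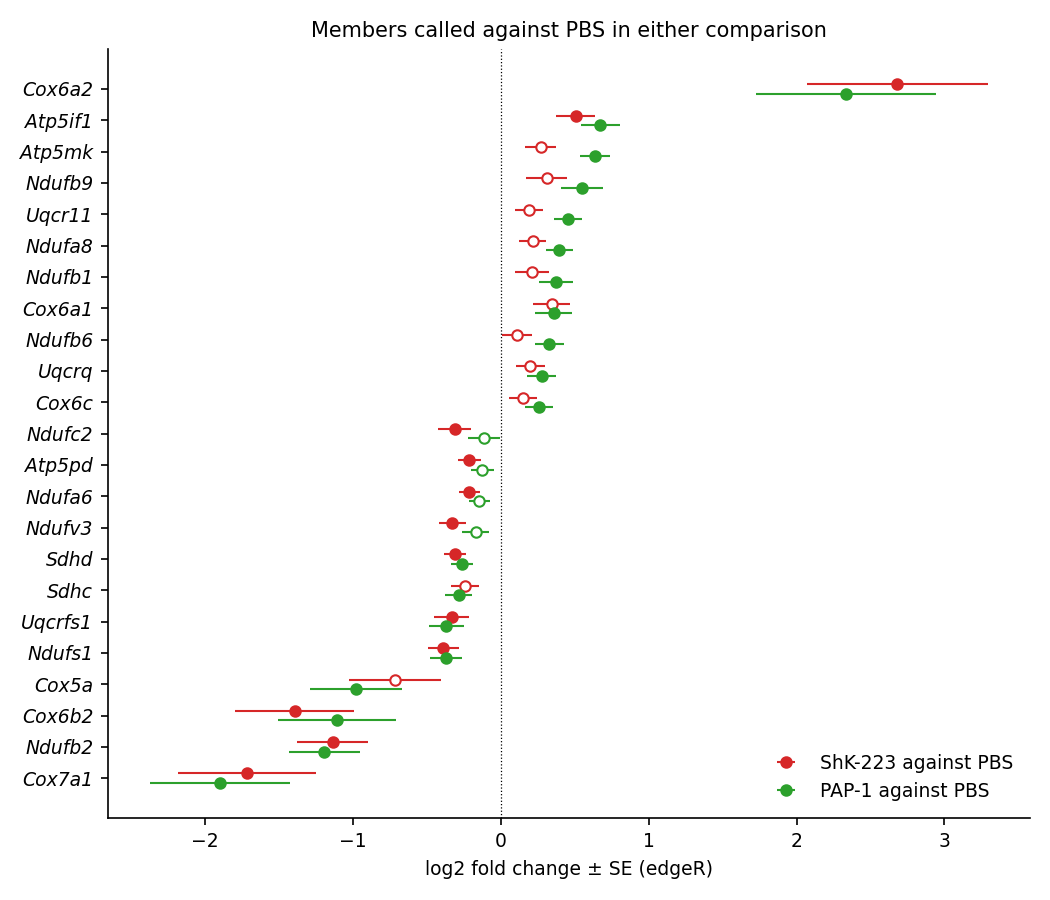
Fitted log2 fold change ± SE of the members that passed an adjusted p of 0.05 against PBS in at least 1 of the 2 treatments, except 1 member that is not shown. The treatments share the PBS libraries. Filled points passed and open points did not. Values run from -1.90 for Cox7a1 in PAP-1 to 2.68 for Cox6a2 in ShK-223.

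ShK-223 and PAP-1 were compared directly, with doses and times unknown. No member passed, nor did any of the 15061 genes (0% of all genes), whereas 684 genes and 6 members had an unadjusted p under 0.05, and DESeq2 called 5 genes and no member. Values were lower in ShK-223 for 70 of 84 nuclear members, with a median of -0.10 beside -0.00 for all genes, and for 8 of 13 mitochondrial members, with a median of -0.09. The 6 members are Atp5mk, Ndufa2, Uqcr11, Atp5me, Ndufc1 and Ndufb3, all lower in ShK-223. For Atp5mk the difference was -0.37 (95% interval -0.60 to -0.14, adjusted p = 0.984). The interval lay within 0.5 log2 units of 0 for 69 nuclear and 7 mitochondrial members, so larger differences of the others cannot be dismissed.

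PBS against Control gave 1 called member (1.03%, beside 5.02% of all genes, 4.61% in the lower direction), Atp5if1, which was lower in PBS by a log2 fold change of -0.52 (SE 0.131, adjusted p = 0.0495). That call held only without Control 2 among the fits that left out 1 library, and DESeq2 called 5 members. Control 2, the Control library with cerebellar markers, lay between the groups for many members. Without Control 2 alone 20 members were called. Without Control 2 and PAP-1 1, 19 were called (7 higher and 12 lower, beside 47.8% of all genes), among them Ndufb2 (1.23), Cox7a1 (1.86), Cox6b2 (1.17), Ndufs1 (0.43), Cox6a2 (-2.43), Atp5if1 (-0.61) and Atp5mk (-0.43). In these fits the remaining Control libraries had a cerebellar index of 0.0413 and 0.0411, against 0.840 to 0.991 in PBS. Group and tissue content therefore cannot be told apart there.

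Against Control, neither treatment had a called member or gene (0% of all genes each). Unadjusted p was under 0.05 for 3 members and 1027 genes in ShK-223 and for 6 members and 2290 genes in PAP-1, and DESeq2 called 10 and 383 genes and no member. Without Control 2 and PAP-1 1 there was still no called member in PAP-1, beside 0.0329% of all genes. Nuclear medians were -0.05 in ShK-223, with 18 of 84 above 0, and 0.05 in PAP-1, with 59 of 84 above 0. Mitochondrial medians were 0.02 and 0.05. The intervals lay within 0.5 log2 units of 0 for 74 nuclear and 7 mitochondrial members in ShK-223 and for 72 and 8 in PAP-1.

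Genes around the pathway were followed in 6 lists, which were not tested against the members or against each other. Of 14 regulators of nuclear respiratory genes, 8 fell and 1 rose in each treatment against PBS (64.3% called), beside 39.1% of all genes called in ShK-223 and 43.7% in PAP-1. Gabpa, the DNA-binding subunit of GABP, was at 29.7, 36.4 and 28.3 CPM in Control, 41.8, 42.4 and 38.2 in PBS, 23.9, 26.9 and 27.5 in ShK-223, and 21.7, 25.3 and 24.0 in PAP-1. It fell by 0.64 in ShK-223 (SE 0.111, adjusted p = 0.00530) and by 0.79 in PAP-1 (SE 0.112, adjusted p = 0.00214), and its partner Gabpb1 fell by 0.60 and 0.57. The deacetylase Sirt1 fell by 1.06 and 0.97, and the nuclear receptors Esrrb by 2.37 and 2.66 and Esrra by 0.47 and 0.64. Nrf1 fell by 0.56 and 0.66, and the mitochondrial deacetylase Sirt3 rose by 0.47 and 0.43. The cerebellar index was higher in PBS, as given above, and its part was not tested for these genes.

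Of 19 genes of glycolysis, 10 rose and 1 fell in ShK-223 (beside 18.8% of all genes higher), and 12 rose and 2 fell in PAP-1 (beside 21.1%). Ldha, which makes lactate, was at 216, 132 and 208 CPM in Control, 128, 98.5 and 109 in PBS, 309, 207 and 191 in ShK-223, and 312, 252 and 239 in PAP-1. It rose by 1.08 (SE 0.228, adjusted p = 0.00827) and 1.26 (SE 0.228, adjusted p = 0.00380), and Control 2 was next to PBS. Tpi1, an enzyme of the middle of the pathway, rose by 0.38 and 0.55, and Aldoc, the aldolase of astrocytes and Purkinje cells, fell by 1.16 and 0.88.

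In the other 4 lists the share called was below that of all genes, at 12.2 to 26.3% in ShK-223 (beside 39.1%) and 22.4 to 40.7% in PAP-1 (beside 43.7%), so the genes named here are examples and no result about a list. Of 49 tested assembly factors and related subunits, 3 rose and 3 fell in ShK-223 and 7 rose and 4 fell in PAP-1. Ttc19, an assembly factor of complex III, rose by 0.59 in both, and Ndufab1, the mitochondrial acyl carrier protein that is part of complex I, fell by 0.57 and 0.52. Of 27 genes of mitochondrial transcription, RNA and DNA maintenance, 1 rose and 4 fell in ShK-223 and 3 rose and 8 fell in PAP-1. Polrmt, the mitochondrial RNA polymerase, fell by 0.66 and 0.60 and Polg2, a subunit of the DNA polymerase, by 1.74 and 1.70. Of 19 genes of the tricarboxylic acid cycle and pyruvate dehydrogenase, 2 rose and 3 fell in each treatment, with Pdha1 at 0.29 and 0.35. Of 21 genes of the outer membrane and import, 3 rose and 1 fell in ShK-223 and 3 rose and 2 fell in PAP-1, with Tomm20 at 0.65 and 0.69. In PBS against Control, Tomm20 was lower (-0.60) and Dlst higher (0.26), and no other gene of these lists was called in the comparisons outside the treatments against PBS.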

How the data were processed

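RNA was measured by sequencing in 12 libraries, 1 per mouse, in 4 groups of 3 taken from the labels. A single table of read counts, raw and whole, was deposited by the authors (21643 rows, 2893 of them 0 throughout). Per the submitters' processing notes the aligner was STAR 2.7.11a, the build GRCm38 and the downstream tools R 4.3.2 and DESeq2 1.40.2. No source used here gives the counter, its strand setting or the annotation, so reads of copies and of antisense genes may be shared. The pseudogene Cox5b-ps, 99.2% identical to Cox5b, meets the naming rule and was kept.

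Libraries differed beyond sampling noise (lowest chi-square per gene over pairs 7.07). Of the genes, 15061 passed filterByExpr. The quasi-likelihood test of edgeR 4.0.16 (R 4.3.3) with TMM scaling was fitted to all 12 libraries with group as the term, and p-values were adjusted by Benjamini-Hochberg within each of 6 comparisons, with calls at 0.05. SE and 95% intervals derive from the test's F value, are approximate, and the intervals are not adjusted. CPM are on TMM-scaled totals, and shares are of raw totals. Lengths are of the longest transcript in GENCODE on GRCm38, protein-coding where there was one, found for 94 members. Copies were sought with BLAST 2.17.0 among annotated transcripts only (at least 90% identity over 50% of the transcript). The fit was tested on simulated data. P-values measure the spread between these mice only.

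The members, lists and alternatives were chosen with earlier results of these data known. Named are all mitochondrial members, fixed core subunits and isoforms, the inhibitor Atp5if1, up to 3 called nuclear members per complex with the smallest p, and up to 4 called genes per pathway list (153 of 154 symbols matched). Other called members, further called genes of the regulator list, members of complex III that did not pass, and the 6 members with the lowest p between the treatments, were named after their values were seen. Alternatives were RLE scaling, totals without mitochondrial genes, 2 other filters, DESeq2 1.42.0, limma-voom (limma 3.58.1), batch name, RNA integrity or cerebellar index as a term, only the 2 groups compared, leaving out each library or Control 2 with PAP-1 1, and a threshold of 0.1. Leaving out the 6 low mitochondrial genes, those with near-identical copies and mt-Atp8, was added after seeing the data. Results of 1 called member are not reported here beyond the counts that include it.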

Additional observations from a re-analysis of the deposited data

How the results depend on the processing

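Under RLE scaling, other filters and RNA integrity the count of called members was 10 to 13 in ShK-223 against PBS (13 as reported) and 16 to 25 in PAP-1 against PBS (20 as reported), and limma-voom gave 12 and 19. In ShK-223 against PBS it was 0 with batch name as a term, 0 with the cerebellar index, 28 without Control 2 and PAP-1 1, 27 at an adjusted p of 0.1, and 4 to 24 when each library was left out. In PAP-1 against PBS it was 5, 0, 22, 33 and 10 to 30. With the index as a term no gene of the table was called either (0), and with batch name 4 genes were called in ShK-223 and 2752 in PAP-1. In PBS against Control the 1 call became 0 with totals without mitochondrial genes, limma-voom, batch name, RNA integrity, the index or only the 2 groups, 5 with DESeq2, 6 at 0.1, 19 without Control 2 and PAP-1 1, and 0 to 20 when each library was left out. The other 3 comparisons had 0 called members in every fit.

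The mitochondrial minus nuclear median was 0.15 in ShK-223 against PBS and -0.0893 with the index. It was 0.35 without the 6 low mitochondrial genes, and 0.05 to 0.32 when each library was left out. In PAP-1 against PBS it was 0.26, -0.0947 with the index, and 0.16 to 0.36. In PBS against Control it was -0.27, 0.0265 with the index, and -0.35 to -0.16. It ran from -0.07 to 0.17 in ShK-223 against PAP-1, from -0.05 to 0.15 in ShK-223 against Control and from -0.11 to 0.11 in PAP-1 against Control when each library was left out. The mitochondrial share was 2.94% of all counts (median) and 78.7% of the counts of all members. With the index as a term 5 values changed sign, Ndufs1 (0.0226 in ShK-223 and 0.0164 in PAP-1), Cox7a1 (0.14) in ShK-223, and Cox6a1 (-0.0480) and Cox6b2 (0.16) in PAP-1. Group and index can hardly be separated in that fit, and the cause of these shifts was not tested. No paired analysis was possible because replicate numbers follow sample order only. RLE scaling moved the median of all genes by less than 0.1.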
